A study of Danio rerio with 40 samples.

Results

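Larvae kept in calcitriol until 7 days post fertilization (dpf) were set against vehicle larvae that were 3 days younger, in 10 libraries: 5 of calcitriol at 7 dpf and 5 of vehicle at 4 dpf, out of 40 libraries in the series. The libraries were chosen by their labels alone, and all 14267 genes of the count table entered. Of these, 13484 passed the filter on low counts and were tested, and 783 did not pass. The comparison holds 3 days of development and the hormone together, and the effects of each cannot be told apart within it. The 5 vehicle libraries of 7 dpf were therefore fitted alongside, so that each gene of the treated larvae could be placed against the normal level at both ages. The question was which genes of treated 7 dpf larvae stood at the level of normal 4 dpf larvae and which lay outside the normal range of both ages.

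Poly-A RNA of whole zebrafish (Danio rerio) was sequenced by the study, at 2, 4, 6 and 7 dpf. All groups came from Segrest wild-type parents and were raised in 0.003% phenylthiourea, which blocks pigment formation. From 24 h after fertilization the treated sets received 300 pM calcitriol (1α,25-dihydroxyvitamin D3) in ethanol and the vehicle sets ethanol alone, with medium renewed every 24 h and 25 to 30 embryos in a set. The labels also describe a second experiment with exposure of 6 dpf larvae for 24 h, without marking any library as part of it, which leaves the exposure time at 7 dpf uncertain. Nothing in the labels tells whether replicates are separate clutches, and the p-values then describe the spread among the libraries alone.

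Calcitriol is the hormone form of vitamin D. It binds the vitamin D receptor, a nuclear receptor that pairs with a retinoid X receptor and switches genes at vitamin D response elements, and one of its best known targets is the enzyme that destroys it, Cyp24a1. In fish, as in mammals, the hormone governs calcium and phosphate uptake. Between hatching and the end of the first week a zebrafish larva consumes its yolk, its digestive organs begin to secrete and absorb, its retina and lens mature, and cell division slows in most tissues. Whole larvae were used, so fewer cells of a type and less RNA per cell cannot be told apart in any result here.

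Total counts in the 15 libraries ran from 73681035 to 198203415, with 13540 to 13927 genes detected. In each of the 3 groups 1 library was shallower, at 76313966 counts or fewer against at least 122249504 in the others. It is replicate 1 in both vehicle groups and replicate 5 in the treated group. In the exon table, which numbers the treated libraries differently, it is replicate 1 in all 3 groups. Depth and whatever that shared number may stand for cannot be told apart. Treated replicate 5 also stood apart from its group in many of the genes below, and counts outside both ages, with the genes whose fold changed by over 1.5 times when it was left out (gip, ces3, pmepa1 and vgll4), are also given without it. After a log2 fold change, ± is the standard error of the edgeR quasi-likelihood fit; after a level in CPM (normalised read count relative to library size) it is the SD over 5 libraries. Adjusted p-values are from the same edgeR fit, by Benjamini-Hochberg over all genes tested, with a threshold of 0.05.

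Against 4 dpf vehicle, 3542 genes were higher in treated 7 dpf larvae (26.3% of those tested) and 3504 were lower (26.0%). The normal change gave 3479 genes higher (25.8%) and 3338 lower (24.8%) in 7 dpf than in 4 dpf vehicle larvae. Between treated and vehicle larvae of the same age, 1970 genes were higher (14.6%) and 2022 lower (15.0%) with the hormone. The 3 comparisons share libraries. Without the 3 shallow libraries the comparison at 7 dpf gave 3303 higher and 3354 lower of 13522 genes tested. List counts given below without these libraries are to be read against those numbers, not against the shares of the main fit.

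Age genes were defined as those called between the vehicle ages with a change of at least 2-fold. There were 1587, of which 916 rose (6.79% of genes tested) and 671 fell (4.98%). Treated larvae stood at a median of 0.834 of the normal log2 change of the rising genes, with quartiles of 0.584 and 1.08, and 0.744 of that of the falling genes, with quartiles of 0.583 and 1.06. The vehicle change that chose these genes is also the divisor, so a fraction under 1 does not by itself show a delay. The line from 4 to 7 dpf used below shares this limit. A fraction under 0.5, closer to 4 than to 7 dpf, was seen for 177 rising genes (19.3%) and 110 falling genes (16.4%). Each gene was then placed by the 95% interval of its difference. For 33 age genes (2.08%) treated larvae differed from 7 dpf vehicle toward 4 dpf and lay within 1.5-fold of the 4 dpf level; 15 of these rise and 18 fall with age. Another 329 age genes (20.7%) were called against both ages and lay between them, 147 rising and 182 falling. At the other end 354 (22.3%) were not called against 7 dpf vehicle and lay within 1.5-fold of it, 233 rising and 121 falling. Of the rest, 767 could not be placed. Among these, 559 were not called against 7 dpf vehicle but had an interval too wide for that level, and 133 were called toward 4 dpf with an interval too wide for the 4 dpf level. The narrowest cases of the 4 dpf class were mep1a.1 and psat1, whose farther bounds stood at 1.47-fold and 1.48-fold, and the first genes beyond the limit were slc38a4 and elna, at 1.5-fold and 1.51-fold.

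**Figure D1:**
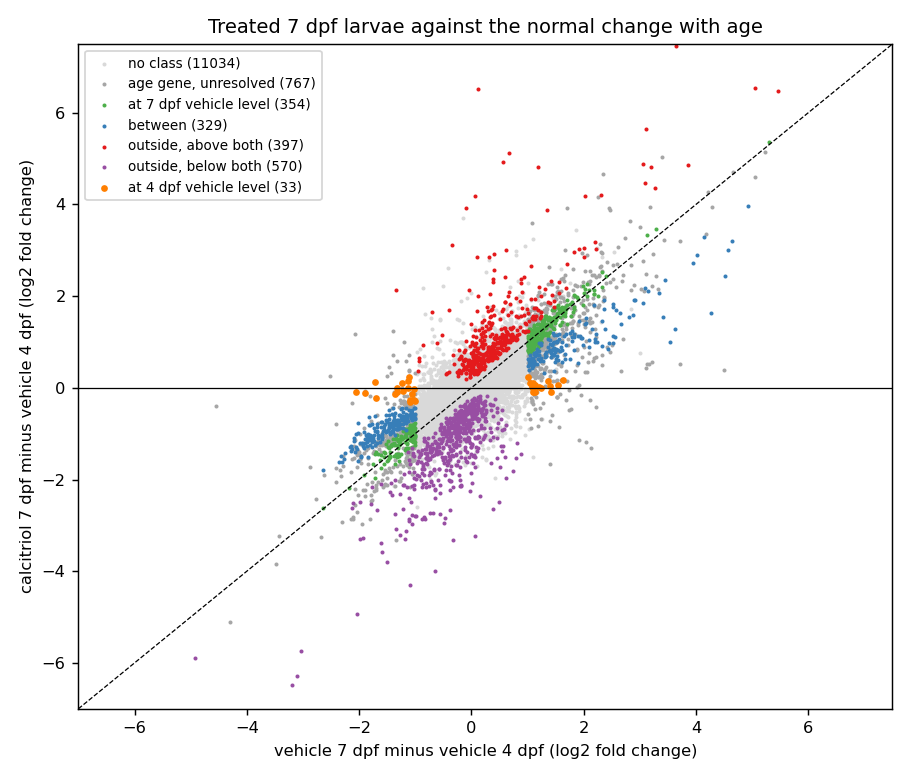
Each point is 1 of 13484 genes, with its normal change from 4 to 7 dpf vehicle (log2 fold change) on the horizontal axis and the difference of treated 7 dpf from 4 dpf vehicle larvae on the vertical axis, coloured by class. Points on the horizontal line are at the 4 dpf level (33 genes called so) and points on the dashed diagonal are at the 7 dpf vehicle level (354 called so); the 329 genes in between and the 397 and 570 genes outside both levels fill the space around them.

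Placed as whole libraries on the line from the 4 dpf vehicle mean (0) to the 7 dpf vehicle mean (1), by the median over age genes, the treated 7 dpf libraries stood at 0.774 to 0.833 with a median of 0.792. The 7 dpf vehicle libraries stood at 0.877 to 1.06 and the 6 dpf vehicle libraries at 0.473 to 0.834, with a median of 0.693. All 5 treated libraries were below all 5 of their age and overlapped the 6 dpf vehicle libraries. Rising genes put the treated libraries at 0.788 to 0.887 and falling genes at 0.728 to 0.784. The lowest 7 dpf vehicle library for falling genes, at 0.748, overlapped the treated range, and for rising genes the lowest was 0.946. On a line drawn from 4 to 6 dpf vehicle, which uses neither 7 dpf group, treated 7 dpf libraries stood at 0.836 to 0.962, against 1.13 to 1.22 for 7 dpf vehicle and 0.831 to 1.13 for 6 dpf vehicle. On that line the rising genes had a treated median of 0.868 against 1.12 in vehicle of the same age. The falling genes had passed the 6 dpf level in both, with 1.2 in treated and 1.58 in vehicle libraries. Treated libraries of 6 dpf stood at 0.444 to 0.745 on the first line and overlapped vehicle of 6 dpf.

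**Figure D2:**
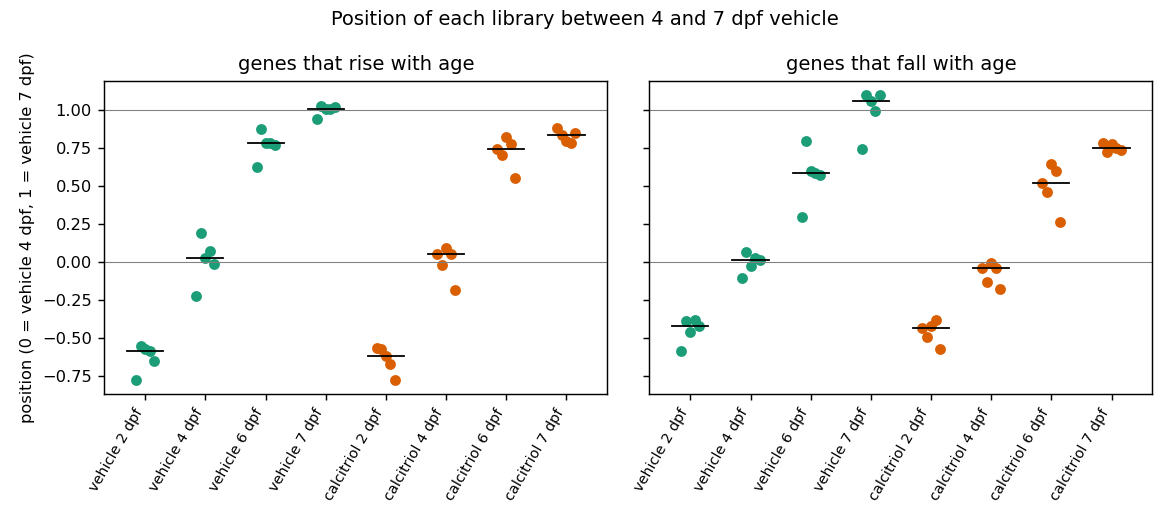
Each point is 1 of 40 libraries, placed between the mean of 4 dpf vehicle (0) and 7 dpf vehicle (1) by the median over the genes that rise (left) or fall (right) with age; bars are group medians, green is vehicle and orange calcitriol. Treated 7 dpf libraries reach 0.788 to 0.887 for rising genes and 0.728 to 0.784 for falling genes.

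The named genes that normally fall and stood at the 4 dpf level in treated larvae included a chromatin regulator, enzymes of serine synthesis and the transferrin receptor. On chromosome 24, ezh2 encodes the histone H3 lysine 27 methyltransferase of Polycomb repressive complex 2. At 4 dpf vehicle its level in replicates 1 to 5 was 24.9, 20.1, 24.8, 22.2 and 24.5 CPM, at 7 dpf vehicle 9.45, 6.65, 6.22, 6.36 and 6.07 CPM, and in treated 7 dpf larvae 23.4, 25.9, 26.5, 27.05 and 19.95 CPM. Of the treated libraries 3 lay above the 4 dpf range and 1 just below it, and every one was above every 7 dpf vehicle library and above the 6 dpf vehicle libraries, whose highest was 16.4 CPM. The difference of ezh2 from 4 dpf was 0.12 ± 0.12 (log2; adjusted p = 0.448) and that from 7 dpf vehicle 1.83 ± 0.13 (adjusted p = 2.4e-07). Its partner suz12a was placed in the same class, at -0.26 from 4 dpf and 0.77 from 7 dpf vehicle.

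Also at the 4 dpf level were the enzymes of serine synthesis. For psat1, phosphoserine aminotransferase on chromosome 5, treated replicates 1 to 5 held 32.5, 40.3, 48.9, 52.1 and 16.5 CPM. Vehicle larvae held 53.2, 34.4, 50.03, 32.5 and 37.6 CPM of psat1 at 4 dpf and 9.76, 10.4, 9.54, 9.90 and 9.49 CPM at 7 dpf. All treated libraries exceeded all 7 dpf vehicle libraries, and the shallow replicate 5 fell below the 4 dpf range. Its log2 difference was -0.09 ± 0.23 from 4 dpf (adjusted p = 0.773) and 1.96 ± 0.24 from 7 dpf vehicle (adjusted p = 2.3e-05), but it kept its place in only 9 of 15 fits that left out 1 library, being near the limit of the class. The enzyme before it in the pathway, phgdh, had means of 64.9, 25.2 and 59.7 CPM at 4 dpf, 7 dpf vehicle and treated 7 dpf, and kept its place in 15 of 15.

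The transferrin receptor tfr1a, through which red cell precursors take up iron, stood at 36.6, 47.0, 48.2, 49.5 and 20.2 CPM in treated replicates 1 to 5. At 4 dpf vehicle, tfr1a held 39.3, 44.3, 48.9, 49.1 and 42.2 CPM, and at 7 dpf vehicle 16.5, 8.25, 11.6, 11.4 and 11.3 CPM. Treated libraries again lay above all of 7 dpf vehicle, with replicate 5 and replicate 1 under the 4 dpf range. The log2 difference from 7 dpf vehicle was 1.78 ± 0.21 (adjusted p = 2.1e-05) and that from 4 dpf -0.11 ± 0.20 (adjusted p = 0.676); the place was kept in 10 of 15 fits without 1 library. A heme synthesis enzyme, hmbsa, was in the same class (12.2, 5.42 and 13.2 CPM at 4 dpf, 7 dpf vehicle and treated 7 dpf). So were the cell cycle repressor e2f7, the Ran GTPase activator rangap1, the Myc family member mycl1a (called against 4 dpf with the block of exon table numbers described below, at 0.23 and adjusted p = 0.0429) and the replication helicase subunit mcm4, with the small GTPase rab13, the calcium-binding calua and the collagen cross-linking enzyme lox. The farthest of the named falling genes from 4 dpf was mcm4, which was called against it as well (-0.27 ± 0.11, adjusted p = 0.0495), a call lost in 12 of 15 fits without 1 library.

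The named genes that normally rise and stood at the 4 dpf level in treated larvae encode a nuclear receptor, a hormone and several enzymes. The nuclear receptor pparaa on chromosome 4, which drives fatty acid oxidation, held 25.1, 23.2, 23.4, 24.6 and 25.6 CPM in treated replicates 1 to 5. Vehicle larvae held 17.7, 22.7, 19.9, 27.5 and 25.7 CPM of pparaa at 4 dpf and 55.5, 57.6, 56.1, 54.4 and 60.2 CPM at 7 dpf. The treated values lay inside the 4 dpf range and below every 6 dpf vehicle library, the lowest of which was 45.8 CPM. The pparaa difference from 7 dpf vehicle was -1.22 ± 0.10 (adjusted p = 5.7e-07), and from 4 dpf 0.15 ± 0.10 (adjusted p = 0.222).

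Stanniocalcin, encoded by stc1l on chromosome 10, is the hormone with which fish lower calcium uptake. Treated replicates 1 to 5 held 10.5, 7.10, 6.62, 7.90 and 10.7 CPM of stc1l, against 7.40, 9.95, 8.13, 9.12 and 8.01 CPM at 4 dpf and 17.0, 26.1, 21.8, 21.0 and 23.9 CPM at 7 dpf vehicle. The treated range ran slightly past the 4 dpf range on both sides and did not meet that of 7 dpf vehicle. Its log2 difference from 7 dpf vehicle was -1.36 ± 0.15 (adjusted p = 9.7e-06) and from 4 dpf 0.05 ± 0.15 (adjusted p = 0.806).

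For fbp1a, the gluconeogenic fructose-1,6-bisphosphatase on chromosome 5, treated replicates 1 to 5 held 35.5, 36.6, 31.2, 30.8 and 38.8 CPM. Vehicle larvae held 35.0, 38.7, 38.1, 31.6 and 31.8 CPM of fbp1a at 4 dpf and 64.7, 84.3, 81.0, 81.7 and 82.6 CPM at 7 dpf. Treated and 4 dpf libraries overlapped throughout, and fbp1a differed from 7 dpf vehicle by -1.19 ± 0.10 (adjusted p = 5.9e-07) and from 4 dpf by 0.02 ± 0.10 (adjusted p = 0.876). The rate-limiting enzyme of bile acid synthesis, cyp7a1a, had treated values of 28.9, 27.8, 28.0, 30.3 and 21.6 CPM, against 19.3 to 40.9 CPM at 4 dpf and 52.1 to 63.6 CPM at 7 dpf vehicle. Its treated libraries lay within the 4 dpf range and under all of 7 dpf vehicle (-1.097 ± 0.17 from 7 dpf vehicle, adjusted p = 1.9e-04; -0.01 ± 0.17 from 4 dpf, adjusted p = 0.974). The other named rising genes of the class were the ceramidase asah2 and the meprin subunit mep1a.1, with the carotene-cleaving enzyme bcmo1. Each was lost from the class in at least 4 of 15 fits without 1 library: asah2 was kept in 9, mep1a.1 in 6 and bcmo1 in 11.

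**Figure D3:**
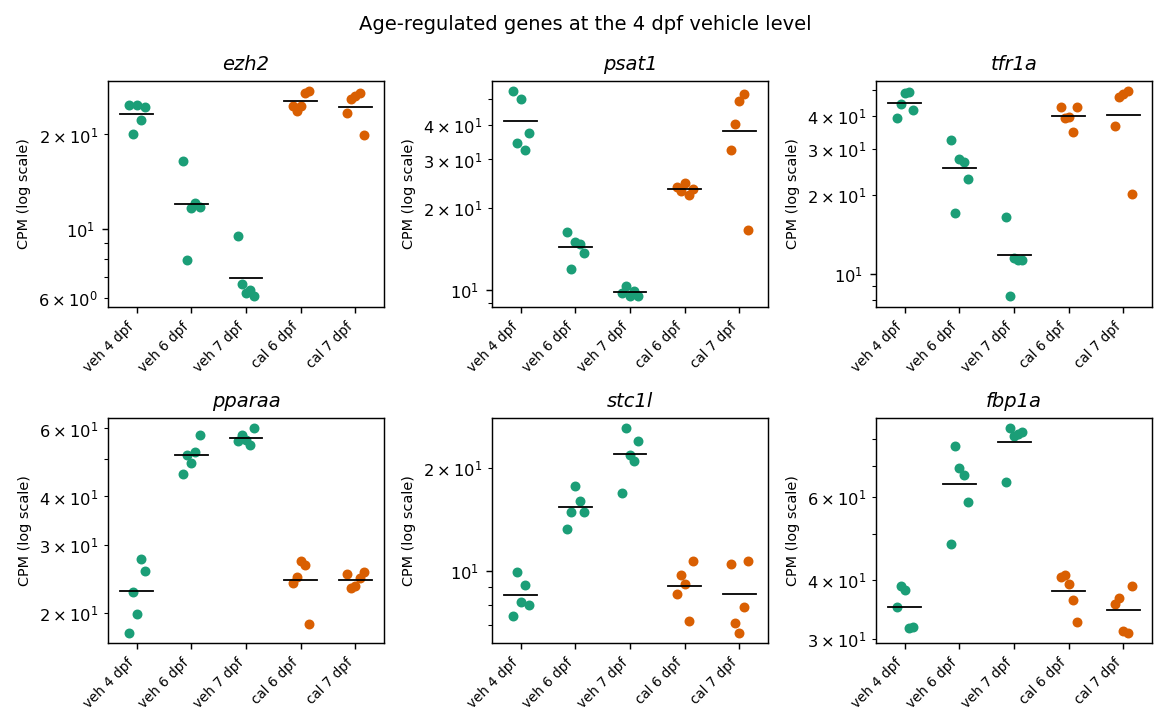
Level in CPM (log axis) of 6 age genes in each library of vehicle (green) at 4, 6 and 7 dpf and of calcitriol (orange) at 6 and 7 dpf, with bars at the group means. In treated 7 dpf larvae ezh2, psat1 and tfr1a stand near their 4 dpf vehicle level, at 24.6, 38.1 and 40.3 CPM, and pparaa, stc1l and fbp1a near theirs, at 24.4, 8.57 and 34.6 CPM.

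The 6 dpf libraries were used in none of these placements. There 590 genes of 13505 were higher in treated than in vehicle larvae (4.37%) and 854 lower (6.32%). Of the 33 genes at the 4 dpf level, 22 differed from 6 dpf vehicle in the direction of 4 dpf and 0 in the other; in edgeR's quasi-likelihood test the remaining 11 did not pass. At 6 dpf pparaa differed by -1.06 (adjusted p = 1.2e-04), stc1l by -0.75 (adjusted p = 0.00165), fbp1a by -0.74 (adjusted p = 0.00194) and ezh2 by 1.11 (adjusted p = 0.00101). The difference of phgdh was 0.11 (adjusted p = 0.608) and that of e2f7 0.30 (adjusted p = 0.373), so these had not been shown to differ a day earlier.

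Genes between the normal levels of both ages included plasma proteins and digestive enzymes. Fetuin, a plasma protein of the liver encoded by ahsg on chromosome 22, held 3.91, 4.49, 5.67, 5.92 and 5.75 CPM in treated replicates 1 to 5. At 4 dpf vehicle ahsg held 0.816, 2.41, 1.81, 1.64 and 1.70 CPM and at 7 dpf vehicle 32.9, 33.0, 28.3, 34.3 and 31.4 CPM. No treated library met either range, and the lowest 6 dpf vehicle library already stood at 22.6 CPM. The log2 difference of ahsg was 1.64 ± 0.20 from 4 dpf (adjusted p = 3.4e-06) and -2.63 ± 0.20 from 7 dpf vehicle (adjusted p = 2.5e-07).

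Secreted enzymes of the exocrine pancreas showed the same placing. Elastase ela3l, on chromosome 5, stood at 372, 294, 365, 306 and 283 CPM in treated larvae, against 29.8, 295, 149, 220 and 137 CPM at 4 dpf and 1721, 1756, 1760, 1963 and 2199 CPM at 7 dpf vehicle. Treated replicates of ela3l overlapped the highest 4 dpf library and lay far below 7 dpf vehicle and below the 753 to 1343 CPM of 6 dpf vehicle (1.00 ± 0.36 from 4 dpf, adjusted p = 0.027; -2.53 ± 0.38 from 7 dpf vehicle, adjusted p = 1.5e-04). The call of ela3l against 4 dpf was lost in 3 of 15 fits without 1 library. Amylase, amy2a, was nearer to its age group at 479, 375, 433, 399 and 256 CPM, against 9.39 to 127 CPM at 4 dpf and 804 to 1030 CPM at 7 dpf vehicle. It was called against both, at 2.71 ± 0.43 (adjusted p = 6.3e-05) and -1.24 ± 0.41 (adjusted p = 0.0322), though it was placed between in only 7 of 15 fits without 1 library.

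Of 19 exocrine pancreas genes tested, 17 rose and 1 fell with normal age. In treated larvae 14 were higher than at 4 dpf, where 26.3% of all genes were, and 14 were lower than 7 dpf vehicle, where 15.0% of all genes were. The list's median log2 change was 2.88 with normal age, 1.46 in treated larvae against 4 dpf and -1.30 against 7 dpf vehicle, while the medians over all genes were 0.00, -0.01 and 0.00. Among the 19 were 17 age genes, all rising, of which 11 lay between the ages and 6 could not be placed. Of all rising age genes 16.0% lay between and 51.5% could not be placed. Carboxypeptidase cpa1 (3.19 ± 0.33 from 4 dpf, -1.44 ± 0.31 from 7 dpf vehicle) and chymotrypsinogen ctrb1 (2.17 ± 0.30 and -0.92 ± 0.29) were between, the call of ctrb1 against 7 dpf vehicle being lost in 1 of 15 fits without 1 library. The elastase ela2 was not shown to differ from 4 dpf (0.43 ± 0.38, adjusted p = 0.35) and was lower than 7 dpf vehicle (-2.67 ± 0.40, adjusted p = 1.7e-04).

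Cell division genes lay between the ages from the other side. The mitotic kinase cdk1, on chromosome 17, held 27.4, 17.2, 18.5, 18.7 and 19.5 CPM at 4 dpf vehicle, 6.96, 3.02, 3.25, 2.99 and 3.07 CPM at 7 dpf vehicle and 5.32, 5.96, 6.31, 5.89 and 8.65 CPM in treated larvae. Treated libraries lay above the 4 deeper 7 dpf vehicle libraries and overlapped the shallow one, and all were below 4 dpf. Its log2 difference was -1.62 ± 0.23 from 4 dpf (adjusted p = 1.9e-05) and 0.74 ± 0.23 from 7 dpf vehicle (adjusted p = 0.0218), and cdk1 was placed between in 11 of 15 fits without 1 library.

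Of 53 cell cycle and replication genes tested, 53 fell with normal age and 50 were lower in treated larvae than at 4 dpf, where 26.0% of all genes were. Against 7 dpf vehicle 34 were higher and 0 lower, where 14.6% and 15.0% of all genes were. Without the shallow libraries 51 were higher, where 3303 of 13522 genes were. The median log2 difference of the list was -1.48 with normal age, -0.86 in treated larvae against 4 dpf and 0.55 against 7 dpf vehicle. By class 26 lay between, 1 (mcm4) at the 4 dpf level, 1 (the replication fork factor cdc45) at the 7 dpf level and 15 could not be placed. These were the list's 43 age genes, all falling. The same shares of all falling age genes were 27.1%, 2.68%, 18.0% and 44.0%. The cyclins ccnb1 and ccna2, thymidylate synthase tyms and the helicase subunit mcm2 were between, with 0.85, 0.76, 0.87 and 0.75 against 7 dpf vehicle; that of ccna2 was lost in 3 of 15 fits without 1 library. The chromatin remodeller hells was too (-0.61 ± 0.12 from 4 dpf and 1.103 ± 0.13 from 7 dpf vehicle). Of the chromatin proteins of early growth, hmga2, an architectural chromatin protein, was at the 7 dpf level (0.17 ± 0.09 from 7 dpf vehicle, adjusted p = 0.164), and its relative hmga1b was above both ages (0.36 ± 0.06 and 1.31 ± 0.06), with means of 53.5, 26.9 and 66.5 CPM at 4 dpf, 7 dpf vehicle and treated 7 dpf.

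Red blood cells carry oxygen with hemoglobin. Of 23 of their genes tested, 13 fell with normal age and 2 rose. Treated larvae had 13 higher than 7 dpf vehicle and 0 lower, against 14.6% and 15.0% of all genes, and against 4 dpf 7 were higher and 2 lower, where 26.3% and 26.0% of all genes were. Of the list's 6 age genes, all falling, 1 was at the 4 dpf level, 1 at the 7 dpf level and 4 could not be placed. Of all falling age genes these shares were 2.68%, 18.0% and 44.0%. Above both ages were 2 of the 23, where 2.94% of all genes were. The median log2 difference was -0.73 with normal age, 0.26 from 4 dpf and 0.88 from 7 dpf vehicle. The first enzyme of heme synthesis in red cells, alas2, had means of 40.4, 14.5 and 49.3 CPM at 4 dpf, 7 dpf vehicle and treated 7 dpf, and 0.33 ± 0.20 from 4 dpf (adjusted p = 0.19) left its interval too wide for the 4 dpf class. The master regulator gata1a was above both (0.71 ± 0.18 and 1.81 ± 0.18), though single libraries overlapped. The red cell membrane ankyrin ank1 was at the 7 dpf level (-0.15 ± 0.15 from 7 dpf vehicle, adjusted p = 0.483). That place rested on treated replicate 5: without it, and without the shallow libraries, ank1 lay below both ages. With limma voom ank1 could not be placed.

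**Figure D4:**
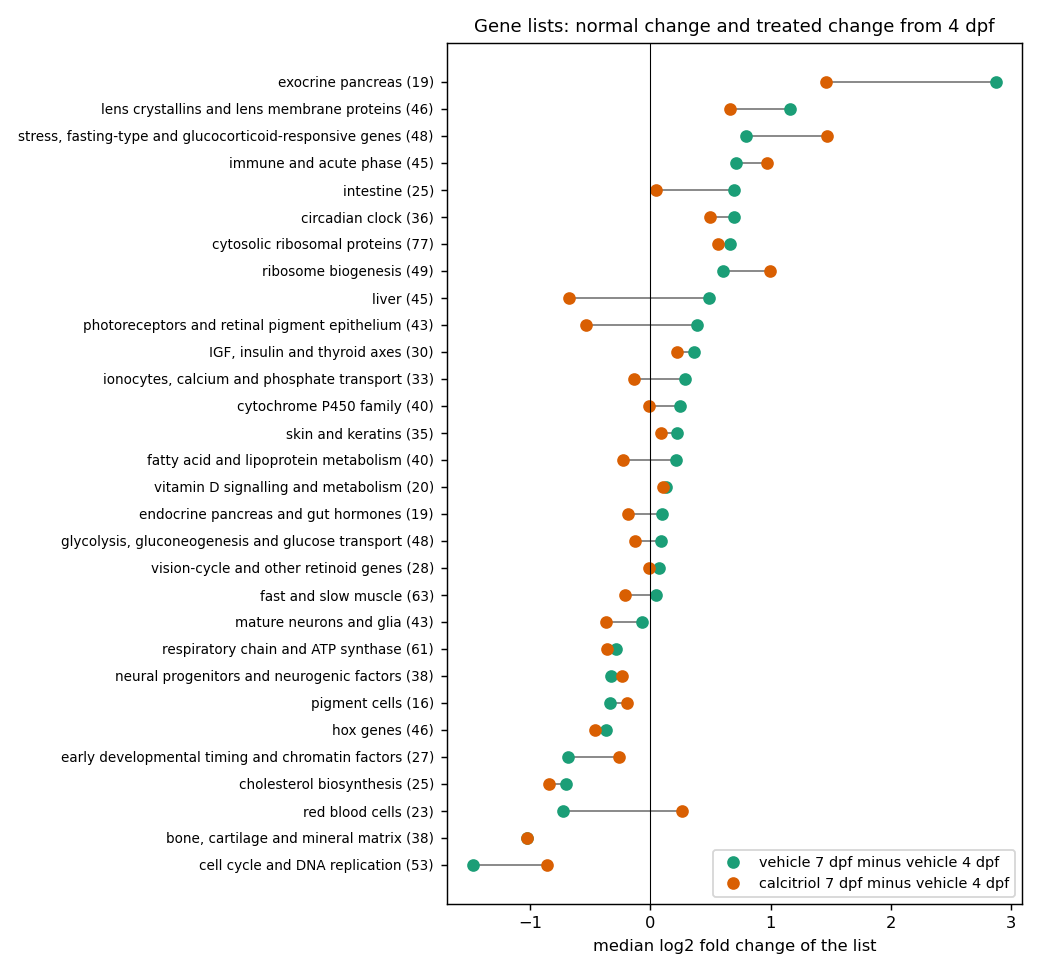
Median log2 fold change of each gene list (number of genes tested in brackets) from 4 dpf vehicle to 7 dpf vehicle (green) and to treated 7 dpf larvae (orange). For the exocrine pancreas the medians are 2.88 and 1.46, for the cell cycle -1.48 and -0.86, for the liver 0.49 and -0.68, for photoreceptors 0.39 and -0.54, and for ribosome biogenesis 0.60 and 1.00.

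Genes outside the normal range were those called in the same direction against both vehicle ages with all 5 treated libraries beyond all 10 vehicle libraries. There were 397 above (2.94% of genes tested) and 570 below (4.23%). Most had no 2-fold change with age (347 above and 516 below), and of the others 49 above were genes that rise and 54 below were genes that fall, so that the treated larvae stood past the 7 dpf level. Of the age genes only klf11a stood outside on the side opposite to its normal change. At least 2-fold from both ages were 74 above and 165 below, and 246 and 207 also lay outside all 20 vehicle libraries of 2 to 7 dpf. Treated replicate 5 limited these counts: without it 979 genes lay above and 1138 below. Without the 3 shallow libraries 1312 of 13522 genes lay above and 1581 below, which is the background for list counts without them. Since the values at 4 and 7 dpf chose the genes, the 6 dpf libraries, which took no part, were looked at separately. They compare treated with vehicle larvae of the same age, so they cannot test whether a gene lies outside both ages. Of the 33 genes at the 4 dpf level, 22 were called at 6 dpf too. At 6 dpf 184 of the 397 genes above were higher with the hormone (46.3%, against 4.37% of all genes) and 0 lower, and 324 of the 570 below were lower (56.8%, against 6.32%) and 0 higher. Without the shallow libraries of 6 dpf, 314 of 396 were higher (79.3%, against 1638 of 13515 genes) and 464 of 570 lower (81.4%, against 1894 of 13515).

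The genes above included the enzyme that inactivates the hormone. The 24-hydroxylase cyp24a1, on chromosome 6, held 14.6, 45.9, 39.2, 34.6 and 36.9 CPM in vehicle replicates 1 to 5 at 4 dpf and 207, 388, 293, 281 and 278 CPM at 7 dpf. In treated 7 dpf larvae cyp24a1 held 1892, 1814, 1785, 1728 and 1087 CPM. Every treated library was above every vehicle library, and the shallow replicate 5 was the lowest. The log2 difference of cyp24a1 was 5.64 ± 0.29 from 4 dpf (49.9-fold, adjusted p = 3.4e-10), 2.53 ± 0.25 from 7 dpf vehicle (5.76-fold, adjusted p = 3.7e-06) and 2.99 ± 0.31 at 6 dpf (adjusted p = 1.6e-04).

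The receptors could not be placed. The rise of vdra with normal age was just under 2-fold; it had means of 14.3, 27.9 and 18.5 CPM at 4 dpf, 7 dpf vehicle and treated 7 dpf (0.41 ± 0.22 from 4 dpf, adjusted p = 0.13; -0.59 ± 0.22 from 7 dpf vehicle, adjusted p = 0.055). With same-numbered libraries of the exon table as a block, vdra was called against both (0.39, adjusted p = 0.0237; -0.55, adjusted p = 0.00678). For vdrb the means were 20.3, 51.8 and 25.4 CPM, with -1.02 ± 0.22 from 7 dpf vehicle (adjusted p = 0.0021) and 0.36 ± 0.21 from 4 dpf (adjusted p = 0.17; 0.34 and 0.0306 with the block). The plasma carrier of vitamin D, gc, was lower than 7 dpf vehicle (-2.02 ± 0.32, adjusted p = 2.6e-04) and lower than 4 dpf (-0.82 ± 0.31, adjusted p = 0.0342; 0.056 with the block, and lost in 7 of 15 fits without 1 library).

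The only age gene classed outside opposite to its normal change was klf11a, a Krüppel-like zinc finger transcription factor on chromosome 20. It fell from 46.3, 48.5, 52.7, 61.9 and 59.6 CPM at 4 dpf to 21.4, 18.1, 20.6, 22.1 and 21.5 CPM at 7 dpf vehicle, and stood at 266, 244, 246, 252 and 143 CPM in treated larvae. All treated libraries lay far above both ages (2.14 ± 0.14 from 4 dpf, adjusted p = 4.7e-09; 3.47 ± 0.15 from 7 dpf vehicle, adjusted p = 6.7e-10; 2.35 at 6 dpf, adjusted p = 2.6e-05). Its paralog klf11b was also higher than both, by 0.60 ± 0.15 and 1.93 ± 0.15, with overlapping single libraries. In all, 14 age genes with such overlap were called toward 4 dpf and past it.

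The insulin-like growth factor binding protein igfbp1b, on chromosome 2, which rises in fasted and oxygen-deprived zebrafish, held 12.9, 35.0, 27.5, 66.2 and 55.2 CPM at 4 dpf and 211, 374, 282, 355 and 364 CPM at 7 dpf vehicle. Treated larvae held 1054, 930, 1098, 1141 and 1430 CPM of igfbp1b. They were above all vehicle libraries by a wide gap, at 4.89 ± 0.35 from 4 dpf (adjusted p = 1.4e-08) and 1.84 ± 0.31 from 7 dpf vehicle (adjusted p = 4.2e-04). At 6 dpf the difference was 2.89 (adjusted p = 2.4e-04). Below both ages were igfbp2a, another binding protein, by -2.11 ± 0.11 and -1.43 ± 0.11, and igfbp2b by -1.78 ± 0.13 and -1.20 ± 0.13.

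Heat shock genes hsp70l and hspb9 were above both ages, hsp70l unevenly between libraries. The inducible chaperone hsp70l, on chromosome 8, held 62.6, 91.4, 102, 111 and 9.24 CPM in treated larvae, 3.99, 1.62, 1.80, 1.73 and 2.201 CPM at 4 dpf and 6.16, 2.32, 3.04, 2.86 and 3.04 CPM at 7 dpf vehicle. The shallow replicate 5 stood just above the highest vehicle library, which was itself a shallow one, and the other 4 far above all of them. The log2 difference of hsp70l was 5.11 ± 0.54 from 4 dpf (adjusted p = 8.4e-07) and 4.45 ± 0.52 from 7 dpf vehicle (adjusted p = 1.8e-05), and 2.13 ± 0.76 at 6 dpf, where it did not pass (adjusted p = 0.0994). Reads of near-identical heat shock genes could be lost or assigned to the wrong copy, so its level is uncertain.

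The cytokine signal inhibitor socs3b, on chromosome 12, showed the same unevenness, at 95.6, 164, 177, 183 and 49.7 CPM in treated larvae against 18.96 to 32.8 CPM at 4 dpf and 28.2 to 45.4 CPM at 7 dpf vehicle. All treated libraries of socs3b were above all vehicle ones (2.31 ± 0.29 from 4 dpf, adjusted p = 5.1e-06; 1.92 ± 0.28 from 7 dpf vehicle, adjusted p = 1.4e-04). At 6 dpf it gave 0.71 (adjusted p = 0.107). The transcription factor stat3, which induces it, was above both by 1.49 ± 0.16 and 1.26 ± 0.16. Other named genes above were the small heat shock protein hspb9 (2.05 and 1.73), the growth arrest gene gadd45aa (1.67 and 1.37), tyrosyl-tRNA synthetase yars (1.395 and 1.394), the GTP-binding gtpbp1 (2.13 and 2.18), brf1a (1.777 and 1.4) and the lens crystallin crygm2c (4.47 and 1.39), with log2 differences from 4 dpf and from 7 dpf vehicle in brackets. Crystallins of the crygm2 family are near copies of each other, and their reads could be lost or assigned to the wrong copy.

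Of 48 stress, fasting-type and glucocorticoid-responsive genes, 12 lay above both ages and 2 below, where 2.94% and 4.23% of all genes did. Without the shallow libraries 21 were above, where 1312 of 13522 genes were. Against 4 dpf 38 were higher and 3 lower, where 26.3% and 26.0% of all genes were. Against 7 dpf vehicle 25 were higher and 7 lower, where 14.6% and 15.0% of all genes were. The median log2 difference was 0.80 with normal age, 1.47 from 4 dpf and 0.59 from 7 dpf vehicle. Tyrosine aminotransferase tat (4.86 ± 0.24 and 0.99 ± 0.21) and gadd45ba (2.85 ± 0.16 and 0.84 ± 0.15) were above, having also risen with normal age. The forkhead factor foxo3a was below (-1.11 ± 0.11 and -1.32 ± 0.11). The muscle ubiquitin ligase fbxo32, which rises, stood at the 7 dpf level: treated larvae held 220, 233, 203, 176 and 278 CPM, 7 dpf vehicle 177, 212, 213, 222 and 245 CPM and 4 dpf 2.85, 8.72, 4.25, 6.02 and 5.77 CPM. Treated and vehicle libraries of 7 dpf overlapped for fbxo32, and differed by 0.06 ± 0.21 (adjusted p = 0.862).

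Ribosome biogenesis factors assemble ribosomes in the nucleolus. Of 49 tested, 37 rose with normal age and 0 fell; in treated larvae 47 were higher than at 4 dpf and 38 higher than 7 dpf vehicle, with 0 lower in each, against 26.3% and 14.6% of all genes. The median log2 difference was 0.60 with normal age, 1.00 from 4 dpf and 0.45 from 7 dpf vehicle. By class 21 were above both ages, where 2.94% of all genes were. Without the shallow libraries 37 were above, where 1312 of 13522 genes were. Among the 21 were the nucleolar GTPase gnl3 (0.91 ± 0.09 and 0.54 ± 0.09), noc4l (1.08 ± 0.12 and 0.68 ± 0.12) and the RNA helicases ddx18 (1.17 ± 0.08 and 0.46 ± 0.08) and ddx27 (1.52 ± 0.07 and 0.30 ± 0.07). The helicase ddx21 was at the 7 dpf level, with 1367, 1490, 1537, 1593 and 1201 CPM in treated larvae, 1209 to 1565 CPM at 7 dpf vehicle and 215.1 to 305.1 CPM at 4 dpf. Treated ddx21 overlapped its age group and lay far above 4 dpf (0.03 ± 0.11 from 7 dpf vehicle, adjusted p = 0.875). The growth regulator mycn was above both, by 1.01 ± 0.08 and 1.11 ± 0.08. Of 77 cytosolic ribosomal protein genes 77 were higher than at 4 dpf in both 7 dpf groups (73 in treated and 63 in vehicle larvae without scaling factors). Of all genes 26.3% were so in treated and 25.8% in vehicle larvae (2625 and 1790 of 13484 genes without scaling factors). Against 7 dpf vehicle 2 were lower and 0 higher, where 15.0% and 14.6% of all genes were. Without the shallow libraries 9 were lower, where 3354 of 13522 genes were. The block of exon table numbers gave 5 lower, where 2493 of 13484 genes were. Without scaling factors 0 were lower, where 1108 of 13484 genes were. Among the 2 was rps2 (-0.16 ± 0.06, adjusted p = 0.0446). The call of rps2 was lost in 13 of 15 fits without 1 library, and its sign turned without scaling factors (0.015, adjusted p = 0.855).

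Below both ages stood first the cone opsins. The green cone opsin opn1mw1, on chromosome 6, held 564, 541, 519, 556 and 636 CPM at 4 dpf, 188, 271, 267, 319 and 246 CPM at 7 dpf vehicle and 37.8, 23.0, 19.9, 15.13 and 43.6 CPM in treated larvae. Every treated library lay below every vehicle library of both ages, replicates 1 and 5 being the highest of them. The log2 difference of opn1mw1 was -4.30 ± 0.26 from 4 dpf (adjusted p = 1.9e-09) and -3.21 ± 0.25 from 7 dpf vehicle (adjusted p = 3.4e-07), and -1.83 at 6 dpf (adjusted p = 0.0387). This opsin stands in a tandem array of close copies, and its reads could be lost or assigned to the wrong copy.

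The ultraviolet cone opsin opn1sw1, on chromosome 4, held 306, 184, 173, 132 and 393 CPM in treated larvae, against 1759 to 2020 CPM at 4 dpf and 1014 to 1480 CPM at 7 dpf vehicle. Groups did not overlap for opn1sw1 (-2.96 ± 0.24 from 4 dpf, adjusted p = 4.6e-08; -2.46 ± 0.23 from 7 dpf vehicle, adjusted p = 2.4e-06; -1.31 at 6 dpf, adjusted p = 0.0201). The blue opsin opn1sw2 (-2.75 ± 0.15 and -2.19 ± 0.14) and the red opsin opn1lw2 (-3.57 ± 0.27 and -1.97 ± 0.25) were below as well. Of 43 photoreceptor and pigment epithelium genes tested, 13 lay below both ages, where 4.23% of all genes did, and 0 above. Without the shallow libraries 23 lay below, where 1581 of 13522 genes did. With normal age 19 rose and 6 fell, where 25.8% and 24.8% of all genes did. In treated larvae 6 were higher and 24 lower than at 4 dpf, where 26.3% and 26.0% of all genes were. Against 7 dpf vehicle 0 were higher and 35 lower, where 14.6% and 15.0% of all genes were. The list's median log2 difference was 0.39 with normal age, -0.54 from 4 dpf and -0.85 from 7 dpf vehicle. The outer segment protein prph2b was also below (-1.099 ± 0.13 and -1.19 ± 0.13).

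Insulin, encoded by ins on chromosome 5, held 8.12, 10.7, 10.8, 8.24 and 8.81 CPM at 4 dpf, 9.61, 12.9, 11.7, 13.5 and 11.5 CPM at 7 dpf vehicle and 2.1, 1.06, 1.31, 0.851 and 2.04 CPM in treated larvae. No treated library came near a vehicle one, at either age (-2.64 ± 0.22 from 4 dpf, adjusted p = 5.6e-08; -3.02 ± 0.22 from 7 dpf vehicle, adjusted p = 2.5e-07; -1.74 at 6 dpf, adjusted p = 1.9e-04). The incretin hormone gip, on chromosome 12, held 343, 390, 404, 351 and 1724 CPM, against 2400 to 4259 CPM at 4 dpf and 3221 to 4933 CPM at 7 dpf vehicle. Its shallow treated replicate 5 stood far above the other 4, and still below all vehicle libraries of gip (-2.35 ± 0.40 and -2.50 ± 0.40, adjusted p = 1.2e-04 and 3.0e-04). Without that library the gip differences were -3.15 and -3.30 (adjusted p = 1.1e-09 and 8.1e-09). Of 19 endocrine pancreas and gut hormone genes, 3 lay below both ages (ins, gip and the glucagon gene gcga, at -1.45 ± 0.22 and -1.44 ± 0.22), where 4.23% of all genes did. Without the shallow libraries there were 8, where 1581 of 13522 genes were below. Against 7 dpf vehicle 7 of the 19 were lower and 0 higher (15.0% and 14.6% of all genes). Without the shallow libraries 11 were lower, where 3354 of 13522 genes were. Against 4 dpf 7 were lower and 2 higher (26.0% and 26.3% of all genes).

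In skin, the keratin gene cyt1l, on chromosome 19, held 97.5, 101, 60.1, 61.2 and 245 CPM in treated larvae, against 914 to 1408 CPM at 4 dpf and 729 to 1027 CPM at 7 dpf vehicle. The groups of cyt1l were far apart, with replicate 5 the highest treated one (-3.32 ± 0.32 from 4 dpf, adjusted p = 3.7e-07; -2.99 ± 0.32 from 7 dpf vehicle, adjusted p = 8.0e-06; -2.19 at 6 dpf, adjusted p = 3.2e-04). The keratins krt4 (-1.50 ± 0.12 and -1.31 ± 0.12) and cyt1 (-1.1 ± 0.18 and -1.55 ± 0.18) were also below both ages. The simple epithelium keratin krt18 was above both (1.16 ± 0.09 and 0.72 ± 0.09). Of 35 skin genes, 3 were below both ages and 1 above, where 4.23% and 2.94% of all genes were. Without the shallow libraries 10 were below and 4 above, where 1581 and 1312 of 13522 genes were. Against 7 dpf vehicle 19 skin genes were lower and 2 higher, where 15.0% and 14.6% of all genes were. Without the shallow libraries 21 were lower and 7 higher, where 3354 and 3303 of 13522 genes were.

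**Figure D5:**
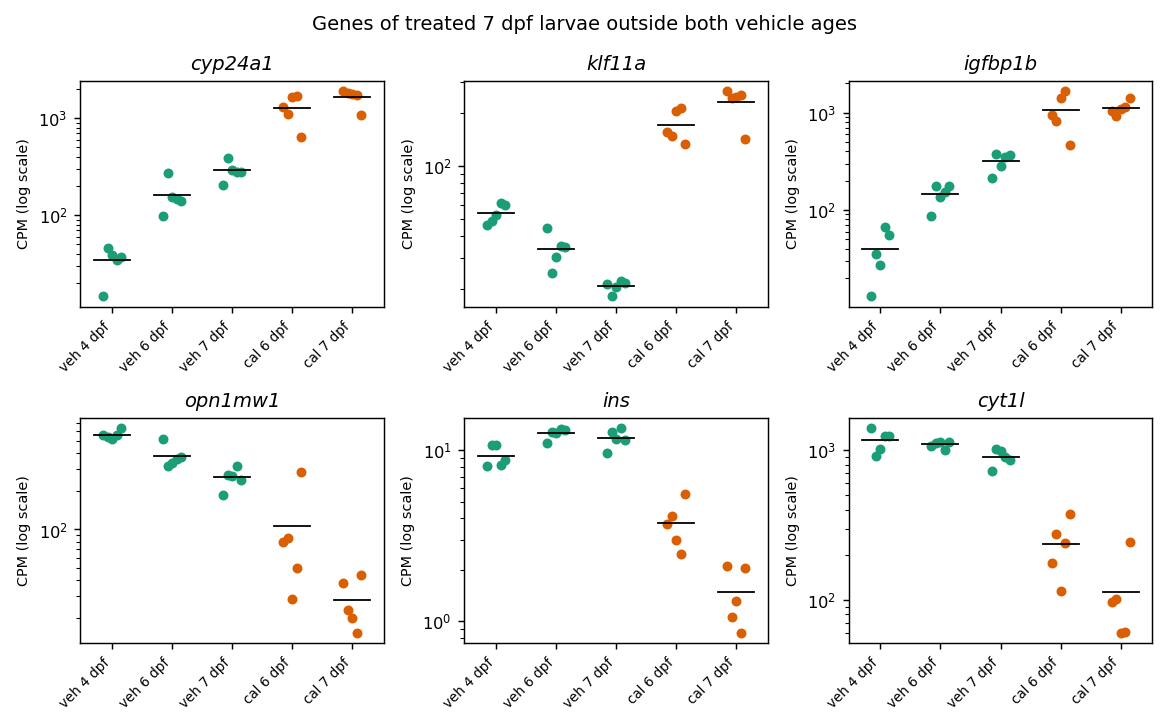
Level in CPM (log axis) of 6 genes outside the normal range, in each library of vehicle (green) at 4, 6 and 7 dpf and of calcitriol (orange) at 6 and 7 dpf, with bars at the group means. Treated 7 dpf means are 1661 CPM for cyp24a1, 230 CPM for klf11a and 1131 CPM for igfbp1b, above all vehicle libraries shown, and 27.9 CPM for opn1mw1, 1.47 CPM for ins and 113 CPM for cyt1l, below them.

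The liver makes plasma proteins and clears foreign compounds. Of 45 liver genes tested, 25 rose and 7 fell with normal age, while treated larvae had 8 higher and 26 lower than at 4 dpf, and 0 higher and 38 lower than 7 dpf vehicle. Of all genes 26.3% and 26.0% were higher and lower than at 4 dpf, and 14.6% and 15.0% than 7 dpf vehicle. The median log2 difference was 0.49 with normal age, -0.68 from 4 dpf and -0.96 from 7 dpf vehicle. Below both ages were 11, where 4.23% of all genes were. Without the shallow libraries there were 30, where 1581 of 13522 genes were below. The clotting factors f7i (-1.52 ± 0.21 and -2.32 ± 0.22) and f10 (-0.36 ± 0.07 and -0.72 ± 0.07), vitronectin vtnb (-1.37 ± 0.10 and -0.79 ± 0.09) and the carboxylesterase ces3 (-2.49 ± 0.49 and -2.98 ± 0.50; -3.62 and -4.10 without treated replicate 5) were among them. Not every liver enzyme did so, for pah, phenylalanine hydroxylase, was at the 7 dpf level (0.01 ± 0.09, adjusted p = 0.926).

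Of 25 intestine genes, 15 rose and 2 fell with normal age, and treated larvae had 5 higher and 9 lower than at 4 dpf and 0 higher and 17 lower than 7 dpf vehicle. The shares of all genes were 26.3% and 26.0% against 4 dpf and 14.6% and 15.0% against 7 dpf vehicle. The median log2 difference was 0.69 with normal age, 0.05 from 4 dpf and -0.96 from 7 dpf vehicle; the second turned to -0.10 without scaling factors and to -0.21 without the shallow libraries. The fatty acid binding proteins fabp1b.1 (-3.80 ± 0.41 and -2.30 ± 0.38) and fabp2 (-1.73 ± 0.25 and -2.24 ± 0.25) were below both ages. The retinol binding protein rbp2b was too (-3.30 ± 0.23 and -2.12 ± 0.22), as was the glucuronosyltransferase ugt1a5 (-2.87 ± 0.23 and -2.05 ± 0.22). The gene ugt1a5 shares exons with its neighbours in 1 locus, so that its reads could be lost or assigned to a neighbour. Also below both ages were pmepa1 (-2.24 ± 0.46 and -2.21 ± 0.46) and vgll4 (-2.07 ± 0.40 and -2.08 ± 0.40), neither of which was called with normal age. Without treated replicate 5 they stood at -3.18 and -3.16 for pmepa1 and at -2.82 and -2.84 for vgll4. In lipid metabolism lipoprotein lipase lpl lay between (1.399 ± 0.13 and -1.26 ± 0.13).

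Skeletal, patterning and clock genes were also listed. Of 38 bone and cartilage genes 30 fell and 2 rose with normal age, and in treated larvae 28 were lower and 2 higher than at 4 dpf, where 26.0% and 26.3% of all genes were; the median was -1.03 in both comparisons. Against 7 dpf vehicle 7 were higher and 6 lower, near the 14.6% and 15.0% of all genes. Without the shallow libraries 10 were lower, where 3354 of 13522 genes were. The list held 21 age genes, all falling, and 8 lay at the 7 dpf level, where 18.0% of all falling age genes did. Among the 8 was lumican lum (-0.09 ± 0.10, adjusted p = 0.529). Elastin elna was an exception, higher than 7 dpf vehicle by 1.76 ± 0.17 and not shown to differ from 4 dpf (0.25 ± 0.16, adjusted p = 0.196). The cartilage matrix gene matn1 was past the normal fall and below both ages (-2.11 ± 0.22 and -0.89 ± 0.22). Of 46 hox genes 27 were lower in treated larvae than at 4 dpf (26.0% of all genes) and 27 fell with normal age (24.8% of all genes). Against 7 dpf vehicle 3 hox genes were lower and 0 higher, where 15.0% and 14.6% of all genes were. Without the shallow libraries 6 hox genes were lower and 2 higher, where 3354 and 3303 of 13522 genes were. Without scaling factors 1 was lower and 3 higher, where 1108 and 4074 of 13484 genes were. Of 36 clock genes 18 were higher than at 4 dpf (26.3% of all genes) and 24 rose with normal age (25.8% of all genes). Against 7 dpf vehicle 1 clock gene was higher and 2 lower, where 14.6% and 15.0% of all genes were. Without the shallow libraries 3 were higher and 17 lower, where 3303 and 3354 of 13522 genes were. The sarcoplasmic calcium pump atp2a1l, which rises, stood at the 7 dpf level (-0.05 ± 0.11 from 7 dpf vehicle, adjusted p = 0.786). Its relative atp2a1 lay below both ages, a place kept in 15 of 15 fits without 1 library. The squalene cyclase lss, which falls, stood at the 7 dpf level (0.02 ± 0.22, adjusted p = 0.96).

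Of the further named genes between the ages, the rising ones were uridine phosphorylase upp2 (3.97 from 4 dpf and -0.95 from 7 dpf vehicle), the meprin subunit mep1b (3.02 and -1.56) and arginase arg2 (2.89 and -1.13). The call of upp2 against 7 dpf vehicle was lost in 2 of 15 fits without 1 library. The falling ones were the prolyl isomerase fkbp9 (-1.26 and 0.89) and the skeletal collagen col10a1 (-1.34 and 0.79). Further named genes at the 7 dpf level were calcoco2 (0.18 ± 0.10 from 7 dpf vehicle) and mkrn1 (0.20 ± 0.16), which rise, and the tubulin tuba8l3b (0.09 ± 0.13), dpysl4 (0.26 ± 0.12), sephs1 (0.30 ± 0.13), frem3 (0.22 ± 0.14) and the bisphosphatase fbp2 (0.16 ± 0.16), which fall. The last is the paralog of fbp1a, and the members of that pair were placed at opposite ends: fbp1a, which rises, at the 4 dpf level and fbp2, which falls, at the 7 dpf level. The place of sephs1 was kept in only 5 of 15 fits without 1 library, and that of mkrn1 in 11. Without treated replicate 5 fbp2 was placed between the ages. Without the shallow libraries tuba8l3b, dpysl4, sephs1 and frem3 were placed between the ages. With the block of exon table numbers sephs1 (0.32, adjusted p = 0.0133) and dpysl4 (0.27, adjusted p = 0.0226) were called higher than 7 dpf vehicle.

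Of 46 lens genes, 33 rose with normal age, and treated larvae had 29 higher and 1 lower than at 4 dpf and 5 higher and 15 lower than 7 dpf vehicle; without the shallow libraries 32 were lower than 7 dpf vehicle. Of 43 genes of mature neurons and glia, 4 were higher and 21 lower than at 4 dpf, and 1 higher and 21 lower than 7 dpf vehicle (33 lower without the shallow libraries and 9 without scaling factors). Of 63 muscle genes, 12 were higher and 30 lower than at 4 dpf, and 5 higher and 21 lower than 7 dpf vehicle. Above both ages were 2 of the 63 and below both 6, where 2.94% and 4.23% of all genes were. Without the shallow libraries 3 were above and 22 below, where 1312 and 1581 of 13522 genes were. Actin acta1b was below both ages (-3.27 ± 0.23 and -1.35 ± 0.22). Of 45 immune and acute phase genes, 31 were higher and 3 lower than at 4 dpf, and 11 higher and 5 lower than 7 dpf vehicle (22 and 8 without the shallow libraries). Of all genes tested, the higher and lower shares were 26.3% and 26.0% against 4 dpf and 14.6% and 15.0% against 7 dpf vehicle. Without the shallow libraries 3303 and 3354 of 13522 genes were higher and lower than 7 dpf vehicle, and without scaling factors 4074 and 1108 of 13484. Of 33 ionocyte and mineral transport genes, 7 were higher and 10 lower than at 4 dpf, and 1 higher and 17 lower than 7 dpf vehicle. The phosphate carrier slc20a1b was above both ages (0.90 ± 0.13 and 0.51 ± 0.12) and the carbonic anhydrase ca2 below both (-0.72 ± 0.09 and -0.41 ± 0.09). The ammonia channel rh50 was lower than 7 dpf vehicle by -3.24 ± 0.46 (adjusted p = 9.9e-05) and lower than 4 dpf by -1.19 ± 0.44 (adjusted p = 0.0299, a call lost in 5 of 15 fits without 1 library), with means of 9.93, 2.44 and 1.04 CPM at 7 dpf vehicle, 4 dpf and treated 7 dpf.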

How the data were processed

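The authors deposited raw counts per gene for 40 libraries, whole numbers without normalization; per the submitters' processing notes CASAVA 1.4 and HTSeq 0.5.3p3 were used. Aligner and strand setting are not given in the sources used here, so a gene and an overlapping or antisense neighbour cannot be told apart. Scaffold names in the table are those of Zv9. Symbols of 13678 of 14267 genes matched the reference tables, and 112 genes share a symbol.

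Groups came from the labels. The 15 libraries of vehicle 4 dpf, vehicle 7 dpf and calcitriol 7 dpf entered 1 quasi-likelihood model of edgeR 4.0.16 under R 4.3.3, with low counts removed by filterByExpr, TMM scaling and robust estimation, and Benjamini-Hochberg adjustment over 13484 genes. Libraries of 6 dpf were fitted apart. Levels are CPM with TMM factors over 40 libraries. The steps were also run on simulated data, but no outcome is given here, so that run does not speak for the calls above. The 30 gene lists (1166 members in the table) and the classes were chosen with earlier results of these data known. Genes were named by class and size of change at a mean log2 CPM of at least 2, plus the vitamin D receptors and up to 4 members per list and contrast by smallest p; suz12a and slc38a4 were chosen after their values were seen. Some genes that this rule chose are not reported here. Replicate spread, not counting error, limits precision: chi-square per degree of freedom between libraries of a group was 21.5 or more.

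Replicate numbers of the exon table differ from those of the gene table for treated libraries. By the exon table's numbers same-numbered libraries of vehicle 4 dpf and calcitriol 7 dpf deviated together (r from 0.143 to 0.497), and those of vehicle and calcitriol at 7 dpf did so at r from 0.0954 to 0.579. Alternatives were other scaling, filters, tools (DESeq2 1.42.0, limma 3.58.1), blocks, class limits and left-out libraries.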

Additional observations from a re-analysis of the deposited data

Results flagged for a closer look

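For 9 genes whose libraries were printed, 1 library stood apart from the other 4 of its group, its gap to the nearest taking over 0.71 of the group's range; chance gives this for about 1 in 20 groups. All 12 such values come from shallow libraries. In calcitriol 7 dpf replicate 5 was the lowest for cyp24a1 (1087 CPM), klf11a (142.6 CPM) and cyp7a1a (21.61 CPM) and the highest for gip (1724 CPM) and cyt1l (245.1 CPM). In vehicle 7 dpf replicate 1 was the highest for hsp70l (6.155 CPM), gip (4933 CPM), ezh2 (9.445 CPM) and cdk1 (6.96 CPM) and the lowest for fbp1a (64.66 CPM). In vehicle 4 dpf replicate 1 was the highest for hsp70l (3.986 CPM) and cdk1 (27.37 CPM). The part of depth in these values was not tested, and it cannot be told apart from the number 1 that these libraries share in the exon table.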

How the results depend on the processing

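Against 4 dpf vehicle the counts of genes stayed within 1.5 times of 3542 higher and 3504 lower in every alternative run, and the cause of the shifts below was not tested unless a class limit itself changed. Without scaling factors, which moved the median of all genes by -0.149 (treated against 4 dpf), -0.314 (normal age) and 0.177 (treated against 7 dpf vehicle), normal age gave 1790 higher and 6554 lower, the 7 dpf comparison 4074 and 1108, the 4 dpf level 68 genes and the class between 617; rps2 against 7 dpf vehicle turned to 0.015. limma voom with quality weights gave 4134 and 4174 at 7 dpf, 101 at the 4 dpf level and 697 between. Without the shallow libraries these were 3303 and 3354, 83 and 600, with 1312 above and 1581 below both ages, and at 6 dpf, chosen after seeing the data, 1638 higher and 1894 lower. Leaving out 1 library at a time gave 26 to 62 genes at the 4 dpf level, 234 to 511 between, 306 to 379 at the 7 dpf level, 357 to 979 above and 538 to 1138 below, with the highest counts at the 4 dpf level and between without vehicle 7 dpf replicate 1 and those above and below without calcitriol 7 dpf replicate 5, and 287 to 1017 higher and 562 to 1389 lower at 6 dpf. A tighter interval limit left 1 gene at the 4 dpf level and 71 at the 7 dpf level, and a limit of 2-fold 204 and 680; no fold minimum gave 875 and 3286, a 4-fold minimum 1 and 17, with 65 between. Requiring all 20 vehicle libraries left 246 above and 207 below, and no condition on single libraries 974 and 1115. The replicate block by the gene table's numbers gave 3554 and 3474 against 4 dpf, 36 genes at the 4 dpf level and 291 higher at 6 dpf; its numbers do not pair treated with vehicle libraries (r from -0.597 to 0.322). Blocking by the numbers of the exon table gave 3921 and 3938, with 41 at the 4 dpf level and 469 between, and moved 21 single-gene calls of named or listed genes across the threshold, those of the genes described above being given there. On the line from 4 to 6 dpf vehicle the treated median moved from 0.792 to 0.923, and that of falling genes from 0.752 to 1.2. The 24 genes chosen by size of change as outside the normal range kept their class in 15 of 15 fits without 1 library and in the 12 other settings followed gene by gene, which do not include the condition on all 20 vehicle libraries. Leaving out a library can only relax the condition on single libraries, and these genes had large changes. Their stability therefore does not speak for all 397 and 570 genes. Of the 397 above, 86.4% were kept without calcitriol 7 dpf replicate 4, and of the 570 below, 78.1% without scaling factors. These were the lowest shares kept, apart from the condition on all 20 vehicle libraries.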
